A study of Mus musculus with 24 samples.

Results

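Unloaded gastrocnemius and plantaris muscle of Nfkb1-/- mice was compared with unloaded muscle of wild type mice, on the 8 arrays that the sample labels give as Nfkb1-/- (n = 4) and wild type (n = 4) after 6 days of hind limb unloading (HU), out of 24 arrays in the series. The Nfkb1-/- mice were of the strain B6;129P2-Nfkb1tm1Bal/J and the wild type mice of the strain B6129PF2/J. All were males aged 6 weeks, and each array held the RNA of 1 mouse. Weight bearing (WB) Nfkb1-/- mice (n = 4) and WB wild type mice (n = 4) of the same strains gave the genotype difference without unloading, and these were other animals than the HU mice. The study used the knockout to look for genes of disuse atrophy that need p50. The deletion is carried by every cell of the animal, so a difference in whole muscle need not come from the muscle fibres. Strain and genotype go together in this comparison and cannot be told apart. No probe set was listed for Nfkb1 in the platform annotation used here, and the loss of its transcript could not be checked.

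NF-κB is a family of dimeric transcription factors that bind κB sites in DNA. Nfkb1 encodes p105, which is processed to p50, a subunit that binds DNA but has no transactivation domain of its own. Dimers of p50 with RelA (p65) activate inflammatory genes, whereas p50 homodimers can repress, or can activate when bound by the co-activator Bcl-3. In skeletal muscle NF-κB is best known for its part in disuse and inflammatory atrophy, in which the ubiquitin proteasome pathway degrades contractile proteins.

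The 16 wild type and Nfkb1-/- arrays had median intensities of 11.6 to 11.9. A mean for each of the 4 groups was fitted to their log2 intensities with limma, over 9722 probe sets (5972 genes) with an intensity above 20 on at least 4 arrays. A probe set was called where its p, after Benjamini-Hochberg adjustment, was under 0.05. Differences are given as Nfkb1-/- minus wild type on the log2 scale with their standard error (SE). The number of arrays limits the precision of every value. Log2 intensities correlated at 0.973 to 0.995 within the HU groups and at 0.985 to 0.994 within the WB groups. The HU arrays fell into pairs. Deviations from the group mean correlated at 0.19 between Nfkb1-/- HU replicates 2 and 3, at 0.11 between replicates 1 and 4, and at -0.52 to -0.64 across these pairs, and in wild type HU at 0.57 between replicates 3 and 4, at 0.11 between replicates 1 and 2, and at -0.54 to -0.76 across. The ratio of 3' to 5' Gapdh control probe sets, a measure of RNA integrity, was 1.13 to 1.157 in Nfkb1-/- HU muscle and 1.09 to 1.13 in wild type HU muscle. Both groups had the profile of fast skeletal muscle. Mean intensities of Acta1, Ckm and Myh4 were 8458, 6828 and 5125 in Nfkb1-/- HU muscle, and 8757, 6916 and 5382 in wild type HU muscle, and none of 15 muscle identity genes was called by limma (lowest adjusted p = 0.051, for Pvalb, the only one with an unadjusted p under 0.05). Their summed intensity was 71716 to 73522 in Nfkb1-/- HU muscle and 74688 to 77432 in wild type HU muscle, and these ranges did not overlap.

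Lower calls outnumbered higher calls in unloaded Nfkb1-/- muscle. In HU, 493 probe sets (367 genes, 5.07% of those tested) were higher in Nfkb1-/- than in wild type muscle and 1005 (766 genes, 10.3%) were lower, together 15.4%. In WB, 90 probe sets were called (0.926%), 53 higher (0.545%) and 37 lower (0.381%). The median absolute difference over all probe sets was 0.16 in HU and 0.08 in WB. HU differences were mostly small, with 53 higher and 32 lower calls over 2-fold, and the median of all probe sets was -0.04. The HU arrays of the genotypes did not overlap for 375 of the 493 higher and 845 of the 1005 lower calls, against 17.3% of all probe sets tested in HU and 8.39% in WB. Only 50 probe sets were called the same way in HU and WB, which was 3.34% of the HU calls and 55.6% of the WB calls. Called in opposite directions was Klk1b16, a kallikrein gene, at -1.39 in HU and 1.89 in WB. Its HU call was lost without Nfkb1-/- HU replicate 2, 3 or 4 or wild type HU replicate 2 or 4 (adjusted p up to 0.089). Among HU calls, the higher ones had a median difference of 0.50 in HU and 0.10 in WB, and the lower ones a median of -0.40 in HU and -0.04 in WB. The HU minus WB difference itself was called for 27 probe sets (0.278%), 9 higher (0.0926%) and 18 lower (0.185%). For most HU calls a difference from WB was therefore not shown. The median SD of log2 intensity was 0.160 in Nfkb1-/- HU, 0.144 in wild type HU, 0.095 in Nfkb1-/- WB and 0.133 in wild type WB arrays. Fitting only the HU groups gave 176 higher and 354 lower calls, and quantile normalization of the deposited values once more gave 740 and 920. Without Nfkb1-/- HU replicate 2 or 3 the higher calls numbered 311 and 302. The WB calls numbered 48 and 58 without Nfkb1-/- WB replicate 1 or 4.

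**Figure D1:**
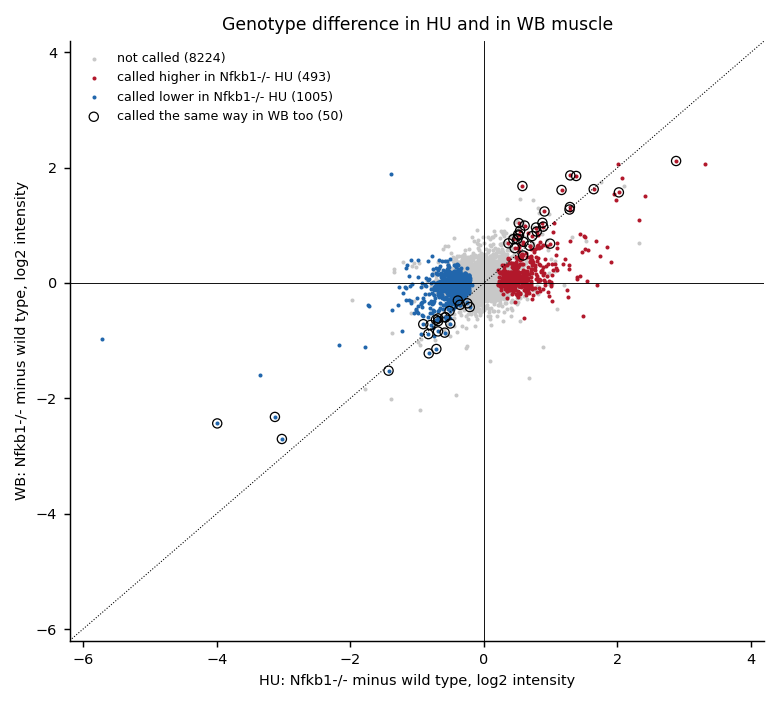
Genotype difference (Nfkb1-/- minus wild type, log2 intensity) in HU muscle on the horizontal axis and in WB muscle on the vertical axis, 1 point for each of 9722 probe sets; red and blue points are the 493 higher and 1005 lower HU calls and circles the 50 called the same way in WB. The median WB difference is 0.10 for the higher and -0.04 for the lower HU calls.

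Among genes of muscle atrophy, Ulk1, Pik3r1, Foxo3 and 1 probe set of Fbxo32 were higher in unloaded Nfkb1-/- muscle, while 9 genes of the proteasome were lower. Ulk1 was the only one higher of 32 lysosome and autophagy genes, and 2 were lower. Of 17 ubiquitin conjugation genes 1 was higher, Ube2g1, and none lower. Of all genes, 4.86% were higher and 10.9% lower. Fbxo32 encodes atrogin-1, a muscle ubiquitin ligase and a target of FoxO factors. Its intensities on replicates 1 to 4 were 341, 1083, 921 and 501 in Nfkb1-/- HU muscle and 198, 109, 404 and 404 in wild type HU muscle. The groups overlapped, with Nfkb1-/- replicates 2 to 4 above all wild type arrays and replicate 1 within their range. The difference was 1.399 ± 0.45 (SE; limma, adjusted p = 0.044), and the call was lost without any 1 of 11 arrays, at 1.01 to 1.71 and an adjusted p of up to 0.124. These were Nfkb1-/- HU replicates 2, 3 and 4, wild type HU replicates 1 and 2, Nfkb1-/- WB replicates 1 and 4 and every wild type WB replicate. A brighter Fbxo32 probe set averaged 1063 in Nfkb1-/- HU and 547 in wild type HU muscle and was not called (0.97, adjusted p = 0.09). In WB muscle the first probe set differed by 0.10, and the HU minus WB difference was not called (1.30, adjusted p = 0.28). The study listed Fbxo32 as a p50 target. Its quantitative PCR found either no rise of Fbxo32 with unloading in Nfkb1-/- muscle or a smaller rise than in wild type muscle. The array values above go the other way. For Foxo3 the PCR found a rise similar to that of wild type muscle. Trim63, the other well-known muscle ubiquitin ligase gene, had no listed probe set.

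Ulk1, the kinase that starts autophagy, had intensities of 129, 166, 173 and 108 in Nfkb1-/- HU muscle, against 78.0, 73.4, 107 and 105 in wild type HU muscle. Every Nfkb1-/- array lay above every wild type array, by a narrow margin for replicate 4. Its difference was 0.66 ± 0.15 (adjusted p = 0.009), with -0.02 in WB. Pik3r1, the regulatory subunit of phosphoinositide 3-kinase, had 58.2, 65.3, 88.4 and 64.9 in Nfkb1-/- HU muscle and 33.7, 28.7, 43.2 and 44.0 in wild type HU muscle, without overlap (0.89 ± 0.15, adjusted p = 0.0015). Both of its other probe sets were higher too, at 0.85 (adjusted p = 0.008) and 0.61 (adjusted p = 0.0035). The WB groups of Pik3r1 differed by -0.11. Foxo3, the transcription factor that drives Fbxo32 and autophagy genes, had 48.1, 76.1, 75.2 and 54.6 in Nfkb1-/- HU muscle and 40.8, 43.8, 45.6 and 50.2 in wild type HU muscle, with Nfkb1-/- replicate 1 inside the wild type range (0.47 ± 0.14, adjusted p = 0.029). This call was lost without Nfkb1-/- HU replicate 2 or 3 or wild type HU replicate 1 or 2, at an adjusted p of up to 0.083. Among 20 IGF, Akt and FoxO genes, Pik3r1 and Foxo3 were higher and Igf2 and Igfbp5 lower, against 4.86% higher and 10.9% lower of all 5972 genes. The Igfbp5 call held in 2 of 16 fits without 1 array (adjusted p up to 0.138). Igf2, a growth factor of muscle regeneration, had 123, 113, 131 and 112 in Nfkb1-/- HU muscle and 193, 173, 156 and 164 in wild type HU muscle. It was lower by about the same amount in both conditions, at -0.51 ± 0.11 in HU (adjusted p = 0.0075) and -0.49 in WB (adjusted p = 0.047).

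The proteasome list held 40 tested genes, of which 1 was higher (4.86% of all genes) and 9 were lower (10.9% of all genes) in Nfkb1-/- HU muscle (Psma4, Psmb2, Psmb3, Psmb4, Psmb6, Psmd10, Psmd13 and the assembly factors Psmg2 and Psmg4). The Psma4 call was lost without replicate 1 of either HU group (adjusted p up to 0.067), and the Psmg4 call without replicate 1 or 3 of either (adjusted p up to 0.085). The median was -0.18 in HU, against -0.05 over all genes, and 0.01 in WB. Below 0 in HU were 34 members (85%), against 58.5% of all genes. Psmb3, a subunit of the catalytic core, had intensities of 259, 327, 341 and 264 in Nfkb1-/- HU muscle and 591, 348, 433 and 408 in wild type HU muscle. The groups did not overlap, and wild type replicate 1 stood highest (-0.56 ± 0.14, adjusted p = 0.015). Psmd13, a subunit of the regulatory lid, had 91.3, 104, 100 and 89.9 in Nfkb1-/- HU muscle and 161, 112, 141 and 146 in wild type HU muscle, without overlap (-0.53 ± 0.11, adjusted p = 0.0053). WB muscle differed by -0.04 for Psmb3 and by -0.03 for Psmd13. Psmd8, another lid subunit, went the other way, at means of 564 in Nfkb1-/- HU and 401 in wild type HU muscle (0.49, adjusted p = 0.029). The lower count depended on the arrays fitted. It was 1 with only the HU groups and 5 where replicate numbers entered as a block. Leaving out single arrays gave 3 to 14, with 3 without Nfkb1-/- HU replicate 1 or wild type HU replicate 1, 5 without Nfkb1-/- HU replicate 3 or wild type HU replicate 3 or 4, and 14 without wild type HU replicate 2. HU arrays did not overlap for 9 of the 40 genes, against 18.3% of all genes in HU and 8.17% in WB.

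A list of atrophy genes in the study was chosen partly on these wild type and Nfkb1-/- HU arrays, so its direction is not independent evidence. Of 23 tested probe sets, 3 were higher and 4 lower in Nfkb1-/- HU muscle, against 5.07% higher and 10.3% lower of all probe sets. The median was -0.16 in HU and 0.12 in WB. Fbxo32 and Foxo3 were among the higher ones. For Foxo3 this was another probe set than above (0.57 ± 0.16, adjusted p = 0.029), which passed the minimum only through Nfkb1-/- HU muscle and lost its call without Nfkb1-/- HU replicate 2 or 3 or wild type HU replicate 1 or 3 (adjusted p up to 0.08). Lower were Psmb3, Psmd13, Psmg4 and Capns1. Capns1, the small calpain subunit, had 266, 297, 271 and 336 in Nfkb1-/- HU muscle and 442, 325, 407 and 400 in wild type HU muscle, where Nfkb1-/- replicate 4 overlapped wild type replicate 2 (-0.42 ± 0.11, adjusted p = 0.017). Its call was lost without wild type HU replicate 1 (adjusted p = 0.051). Not called were the lysosomal protease gene Ctsl, at -0.00 (adjusted p = 0.99), the stretch-responsive Ankrd1, at -1.21 (adjusted p = 0.085), and the Tweak receptor gene Tnfrsf12a, at -0.49 (adjusted p = 0.28). Ankrd1 had 16.8, 52.6, 48.9 and 101 in Nfkb1-/- HU muscle and 295, 59.8, 74.9 and 94.6 in wild type HU muscle, with replicate 1 lowest in Nfkb1-/- and highest in wild type muscle. The study also named p50 targets, chosen on these arrays, and counts over them are a description only. Of the 184 of these probe sets tested, 49 were lower (26.6%) and 1 was higher (0.54%) in Nfkb1-/- HU muscle (median -0.25 in HU, 0.07 in WB). Of all probe sets, 10.3% were lower and 5.07% higher.

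**Figure D2:**
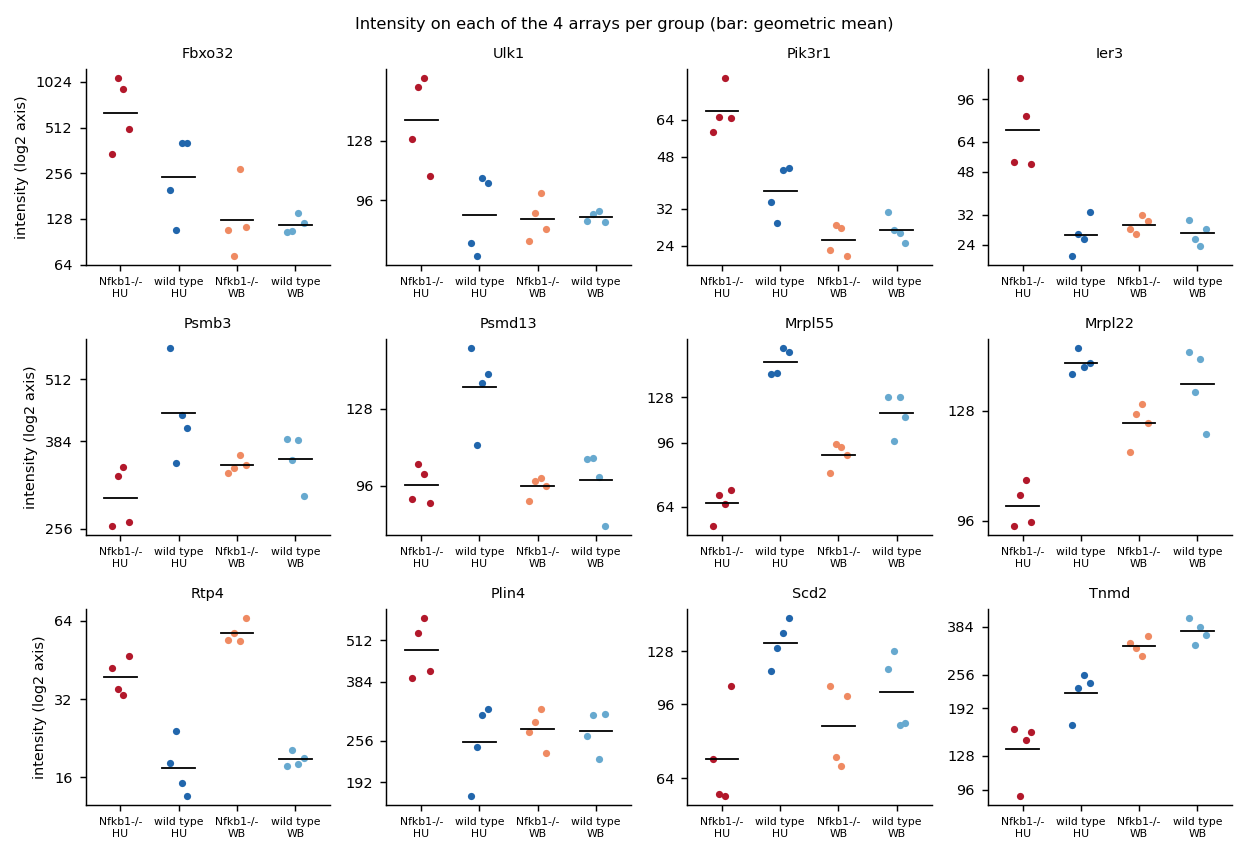
Intensity on a log2 axis for 12 genes, 1 point for each array of the 4 groups, with a bar at the geometric mean (n = 4). In HU muscle the genotypes do not overlap for any gene but Fbxo32, and in WB muscle they do not overlap for Rtp4 and, narrowly, Mrpl55.

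Mitochondrial ribosomal proteins were, of the gene lists used, the one with the largest share of members lower in unloaded Nfkb1-/- muscle. These nuclear-encoded proteins build the ribosome that translates the respiratory chain subunits of mitochondrial DNA. Of 41 tested genes, 19 were lower and none higher in HU, against 10.9% lower and 4.86% higher of all genes. The median difference was -0.26 in HU, with 38 members below 0, and 0.03 in WB, with 16 below 0. Of all genes, 58.5% were below 0 in HU. HU arrays did not overlap for 27 of the 41, and the summed intensity was 5173 to 5765 in Nfkb1-/- HU muscle and 6452 to 6815 in wild type HU muscle. In WB muscle the sums overlapped, at 6304 to 6747 in Nfkb1-/- and 5822 to 6761 in wild type mice.

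Mrpl55 had the largest difference of the list. Its intensities were 56.8, 69.1, 65.3 and 71.4 in Nfkb1-/- HU muscle and 148, 149, 175 and 171 in wild type HU muscle, with no overlap (-1.29 ± 0.10, adjusted p = 2.4e-06). In WB the values were 79.3, 95.1, 93.2 and 88.9 in Nfkb1-/- and 128, 97.2, 128 and 113 in wild type muscle (-0.38, adjusted p = 0.11), and the HU difference exceeded the WB difference by -0.91 ± 0.15 (adjusted p = 0.019). Mrpl22 had 94.8, 103, 107 and 95.8 in Nfkb1-/- HU muscle and 141, 151, 143 and 145 in wild type HU muscle, again without overlap (-0.54 ± 0.08, adjusted p = 0.0005). Mrpl36 had 37.4, 36.3, 35.2 and 32.2 in Nfkb1-/- HU muscle and 64.7, 50.5, 48.1 and 47.3 in wild type HU muscle (-0.57 ± 0.09, adjusted p = 0.0016), and a WB difference of 0.06. The other 16 lower members differed by less than Mrpl22. Apart from Mrpl55, no member was called for the HU minus WB difference (Mrpl36, adjusted p = 0.051). Leaving out 1 array gave 13 to 25 lower calls, and fitting only the HU groups gave 6. Mrpl55, Mrpl22 and Mrpl36 stayed called in every fit that left out an array.

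Other genes of mitochondria and translation moved less. Of 48 tested oxidative phosphorylation genes, 6 were lower and none higher (median -0.06), among them Sdhd, Ndufs3, Ndufb10 and Ndufa8, a share near the 10.9% of all genes. Sdhd, which anchors succinate dehydrogenase in the membrane, had 402, 373, 416 and 403 in Nfkb1-/- HU muscle and 515, 616, 540 and 513 in wild type HU muscle (-0.45 ± 0.09, adjusted p = 0.005). Its groups were well apart. Quantile normalization of the deposited values once more gave 3 higher and 3 lower calls in this list, fitting only the HU groups 1 lower, and leaving out wild type HU replicate 2 1 higher and 2 lower. The Ndufb10 call was lost without Nfkb1-/- HU replicate 4 or wild type HU replicate 2 (adjusted p up to 0.063), and the Ndufa8 call without Nfkb1-/- HU replicate 2 or 3 or wild type HU replicate 2 or 4 (adjusted p up to 0.085). Among 24 cytosolic ribosomal protein genes, Rpl6 and Rpl11 were lower, again no more than the share over all genes. Below 0 in HU were 23 of them (median -0.13), against 58.5% of all genes. The Rpl6 call held in 4 of 16 fits without 1 array (adjusted p up to 0.102), and the Rpl11 call was lost without wild type HU replicate 1 (adjusted p = 0.059). Among 26 translation factors, Eif5a and Eef1d were lower (median -0.06), with calls that held in 13 and 10 of the 16 fits.

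**Figure D3:**
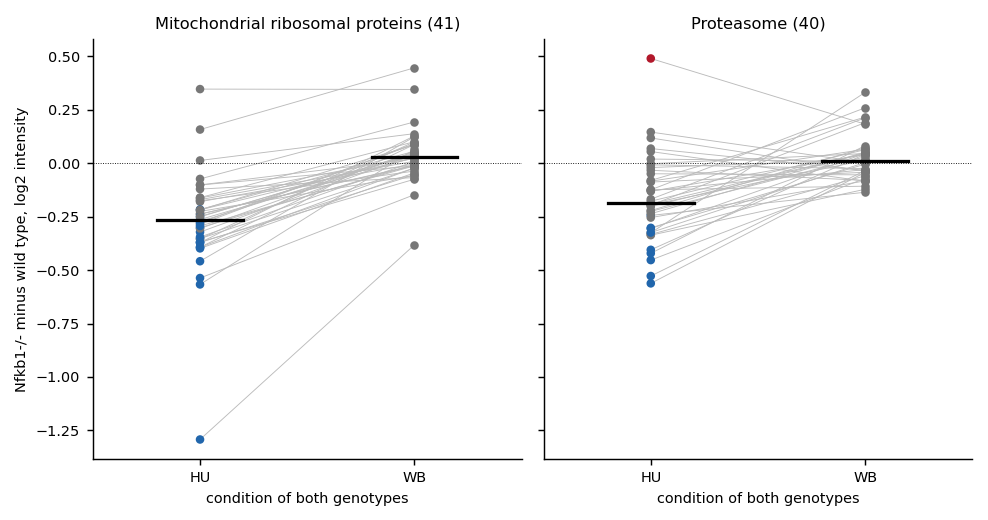
Genotype difference (log2 intensity) of each tested mitochondrial ribosomal protein gene (41) and proteasome gene (40) in HU and in WB muscle, 1 line per gene with the median as a black bar; coloured HU points are calls. The medians are -0.26 in HU and 0.03 in WB for the mitochondrial ribosome, and -0.18 in HU and 0.01 in WB for the proteasome.

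NF-κB genes themselves differed little. Of 21 genes of the family and its inhibitors, 9 were tested, 10 lay below the intensity minimum (Nfkb2, Rel, Relb, Nfkbie, Nfkbiz, Nfkbil1, Bcl3, Ikbke, Map3k14 and Tnfaip3) and 2 had no listed probe set. None was higher and 2 were lower, against 4.86% higher and 10.9% lower of all genes. Rela, which encodes the p65 partner of p50, had 48.4, 56.0, 51.5 and 50.3 in Nfkb1-/- HU muscle and 48.3, 44.1, 50.7 and 49.3 in wild type HU muscle, with overlap (0.10 ± 0.07, adjusted p = 0.31). Nfkbia, which encodes IκBα, the inhibitor that NF-κB induces, had 382, 406, 547 and 379 in Nfkb1-/- HU muscle and 380, 424, 279 and 318 in wild type HU muscle (0.29 ± 0.24, adjusted p = 0.41). Only Nfkb1-/- replicate 3 stood above the wild type arrays. Nkiras1, a Ras-like inhibitor of IκB breakdown, was lower at 118, 128, 135 and 107 in Nfkb1-/- HU muscle, against 158, 158, 183 and 163 in wild type HU muscle (-0.44 ± 0.10, adjusted p = 0.011). Its WB difference was -0.32 (adjusted p = 0.22). Commd1, which promotes the breakdown of RelA, had 90.3, 98.9, 114 and 86.4 in Nfkb1-/- HU muscle and 126, 133, 115 and 117 in wild type HU muscle, barely apart (-0.34 ± 0.10, adjusted p = 0.034). That call was lost without Nfkb1-/- HU replicate 1, 2 or 4 or wild type HU replicate 1 or 2 (adjusted p up to 0.083). Also tested and not called were Nfkbib (-0.16), Ikbkb (0.10), Ikbkg (-0.15), Nkiras2 (-0.06) and Tnip1 (0.21).

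Few classical NF-κB targets were bright enough to be tested. Of 27 cytokine, chemokine and adhesion genes, 19 lay below the minimum and 7 were tested, with Cxcl12 and Sod2 lower, against 10.9% of all genes. Cxcl12, a chemokine for leukocytes and progenitor cells, had 68.4, 76.2, 50.3 and 79.0 in Nfkb1-/- HU muscle and 106, 124, 73.2 and 94.3 in wild type HU muscle, with overlap (-0.53 ± 0.17, adjusted p = 0.043). Sod2, the mitochondrial superoxide dismutase, had 466, 420, 436 and 407 in Nfkb1-/- HU muscle and 500, 513, 493 and 483 in wild type HU muscle (-0.20 ± 0.07, adjusted p = 0.047). Of 16 fits that left out 1 array, the call held in 8 for Cxcl12 and in 2 for Sod2, with adjusted p up to 0.119 and 0.1. The fits without Nfkb1-/- HU replicate 3 or wild type HU replicates 1, 2 or 4 lost both calls. Tnfaip2, a gene induced by tumour necrosis factor, had 88.9, 36.5, 24.2 and 63.0 in Nfkb1-/- HU muscle and 124, 123, 83.8 and 111 in wild type HU muscle, where only Nfkb1-/- replicate 1 reached the wild type range (-1.21 ± 0.32, adjusted p = 0.02). A second probe set of Tnfaip2 was lower as well (-0.998, adjusted p = 0.044). The call of the first was lost without Nfkb1-/- HU replicate 2 or 3 or wild type HU replicate 1 (adjusted p up to 0.055). Tnfaip2 was the only one called of 7 tested TNF signalling genes. In the opposite direction, the immediate early gene Ier3, an NF-κB target that protects against cell death, had 52.8, 117, 81.4 and 51.9 in Nfkb1-/- HU muscle and 21.6, 26.5, 25.3 and 32.7 in wild type HU muscle. All Nfkb1-/- arrays exceeded all wild type arrays, replicates 2 and 3 most (1.45 ± 0.20, adjusted p = 0.00045). In WB muscle Ier3 differed by 0.12, and the HU minus WB difference of 1.33 missed the threshold (adjusted p = 0.051). Ier3 was the only one called of 20 tested immediate early genes (5%), near the 4.86% higher of all genes. The median of the 20 was 0.35 in HU and 0.35 in WB.

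Promoter sequence was examined because p50 binds κB sites. In the 300 bases that run from 250 before to 50 after a RefSeq gene start (GRCm38.p6), the κB consensus was searched on both strands. It matched in 46 of 299 genes called higher in Nfkb1-/- HU muscle (15.4%), 62 of 614 called lower (10.1%), 475 of 3982 not called (11.9%) and 2581 of all 27025 windows (9.55%). A match is not evidence of binding. Tnip1 held 3 overlapping matches, of which 1 is shown. The windows of 4 called genes and of 2 inhibitors that were not called are shown along the strand of the gene with the match in capitals. Ier3 and Irf1 were higher in Nfkb1-/- HU muscle, Sod2 and Tnfaip2 lower, and Nfkbia and Tnip1 were not called.
Ier3 (chr17:35821611-35821640, plus strand): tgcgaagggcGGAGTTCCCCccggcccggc
Irf1 (chr11:53769991-53770020, plus strand): agtccgggccGGGGAATCCCgctaagtgtt
Sod2 (chr17:13007746-13007775, plus strand): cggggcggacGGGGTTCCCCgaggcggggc
Tnfaip2 (chr12:111442627-111442656, plus strand): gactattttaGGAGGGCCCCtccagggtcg
Nfkbia (chr12:55492657-55492686, minus strand): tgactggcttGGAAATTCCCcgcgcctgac
Tnip1 (chr11:54962978-54963007, minus strand): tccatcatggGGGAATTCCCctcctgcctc
The first base of the match lay 92 bases before the gene start in Ier3, 13 in Irf1, 83 in Sod2, 24 in Tnfaip2, 29 in Nfkbia and 57 in Tnip1. The same consensus thus stood before genes that were higher, lower and not called. Among list members it was found in 2 of 35 mitochondrial ribosomal protein genes, 6 of 33 proteasome genes, 4 of 10 interferon genes and 16 of 148 of the p50 targets named above. It was also found in 4 of 7 NF-κB target cytokine, chemokine and adhesion genes and 2 of 7 genes of the NF-κB family and inhibitors.

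Some interferon response genes were higher in Nfkb1-/- muscle in HU and some in WB. Of 33 genes, 12 were tested, 14 lay below the minimum and 7 had no listed probe set. Of the 12, 6 were higher in HU and none lower (median 0.34), against 4.86% higher of all genes, and 4 were higher in WB (median 0.47), against 0.469%. Of the 12, 1 passed the minimum only through 1 group. The HU count was 3 without Nfkb1-/- HU replicate 1 or 4 or with the filter of the study (10 tested), and 2 on fitting only the HU groups. With an intensity above 20 on all 8 HU arrays it was 2 of 7 (median 0.18). Rtp4, a receptor chaperone induced by interferon, had 42.0, 35.0, 33.1 and 46.7 in Nfkb1-/- HU muscle and 18.2, 24.1, 15.2 and 13.6 in wild type HU muscle (1.16 ± 0.15, adjusted p = 0.00026). The WB values were 53.8, 57.7, 53.3 and 65.5 in Nfkb1-/- and 17.7, 20.4, 18.01 and 19.1 in wild type muscle (1.61, adjusted p = 1.5e-05), so that neither pair of groups overlapped. Rsad2, which encodes the antiviral protein viperin, had 84.6, 826, 85.8 and 76.7 in Nfkb1-/- HU muscle and 24.0, 27.8, 32.5 and 26.8 in wild type HU muscle. Replicate 2 was far above the other Nfkb1-/- arrays, and without it the difference was the lowest of the fits that left out an array, at 1.57, against 2.41 ± 0.53 with it (adjusted p = 0.009). Ifit3 was higher in HU (0.91 ± 0.23, adjusted p = 0.017) and in WB (1.24, adjusted p = 0.012), as were Oas1a at 0.51 and 0.84 and Bst2 at 0.58 and 1.68. Irf1, which had 37.8, 29.9, 30.1 and 32.4 in Nfkb1-/- HU muscle and 21.7, 24.5, 28.3 and 27.0 in wild type HU muscle, was called in HU alone (0.36 ± 0.11, adjusted p = 0.031). Its call was lost without Nfkb1-/- HU replicate 1 or 4 or wild type HU replicate 1 or 2 (adjusted p up to 0.093), and its HU minus WB difference was 0.46 (adjusted p = 0.14). Ifi27l2a, an interferon-induced gene outside the list, was higher by 1.64 in HU (adjusted p = 0.0075) and 1.63 in WB (adjusted p = 0.036).

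Some blood and immune cell genes were higher on some arrays. Of all genes, 4.86% were called higher. In whole muscle, more cells of a type and more RNA per cell cannot be told apart. S100a9, a calcium-binding protein of neutrophils and monocytes, had 58.6, 21.1, 22.3 and 47.4 in Nfkb1-/- HU muscle and 5.17, 7.82, 9.13 and 5.59 in wild type HU muscle, without overlap (2.33 ± 0.33, adjusted p = 0.00045). S100a9 reached the intensity minimum only through the Nfkb1-/- HU group. The other tested neutrophil gene, S100a8, was not called (0.96, adjusted p = 0.25), and 10 neutrophil genes lay below the minimum, among them Mpo, Elane and Ngp. Summed over all 12 neutrophil genes on the array, these 10 included, intensity was 110 to 195 in Nfkb1-/- HU and 74.0 to 144 in wild type HU muscle. The 2 tested genes were not summed alone. Alas2, the first enzyme of haem synthesis in red cell precursors, had 61.9, 284, 55.1 and 43.4 in Nfkb1-/- HU muscle and 26.6, 30.6, 31.9 and 25.6 in wild type HU muscle (1.495 ± 0.42, adjusted p = 0.026). Replicate 2 stood out, as for Rsad2, and without it the difference was 0.89. The call was lost without wild type HU replicate 1 or 4 (adjusted p up to 0.06). Of 3 tested red cell genes Alas2 was the only one called, and 1 was at -0.01. Sums over all 7 red cell genes on the array overlapped, at 210 to 775 in Nfkb1-/- HU and 230 to 279 in wild type HU muscle. Ighm, the immunoglobulin heavy chain of B cells, had 108, 68.8, 129 and 89.6 in Nfkb1-/- HU muscle and 54.7, 87.7, 9.29 and 7.45 in wild type HU muscle. Its call (2.00 ± 0.65, adjusted p = 0.049) held in 4 of 16 fits without 1 array, those without wild type HU replicate 1 or 2 or wild type WB replicate 1 or 4. The other tested lymphocyte gene was not called, at -0.50. Sums over all 17 lymphocyte genes on the array overlapped, at 141 to 208 in Nfkb1-/- HU and 95.6 to 187 in wild type HU muscle. Of 15 tested macrophage genes, Cd163 was higher in HU (0.76 ± 0.19, adjusted p = 0.015) and none was lower (median 0.08 in HU, 0.38 in WB). The sum over all 23 macrophage genes on the array was 1083 to 1993 in Nfkb1-/- HU muscle and 971 to 1536 in wild type HU muscle.

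Some fat cell genes and genes induced by glucocorticoids were higher in unloaded Nfkb1-/- muscle. Of 7 tested adipocyte genes, Plin4, Adipoq and Lipe were higher, against 4.86% of all genes, and 2 were below 0 (median 0.50 in HU, 0.02 in WB). The count of higher adipocyte genes was 1 without Nfkb1-/- HU replicate 3 or 4 or wild type HU replicate 2, or with array weights. It was 2 without Nfkb1-/- HU replicate 2 or wild type HU replicate 1 or 4. The Lipe call was lost without Nfkb1-/- HU replicate 2, 3 or 4 or wild type HU replicate 1 or 2 (adjusted p up to 0.085). Plin4, which coats lipid droplets in fat and muscle, had 396, 540, 597 and 414 in Nfkb1-/- HU muscle and 175, 245, 305 and 318 in wild type HU muscle, without overlap (0.92 ± 0.18, adjusted p = 0.0046). Adipoq, the adipocyte hormone adiponectin, had 126, 142, 164 and 163 in Nfkb1-/- HU muscle and 96.1, 88.5, 89.4 and 85.8 in wild type HU muscle (0.72 ± 0.20, adjusted p = 0.026). This call was lost without Nfkb1-/- HU replicate 3 or 4 or wild type HU replicate 2 or 4 (adjusted p up to 0.062). Lep, Pparg and Cidec lay below the minimum. Sums over all 13 adipocyte genes on the array overlapped, at 6503 to 7288 in Nfkb1-/- HU muscle and 6143 to 7122 in wild type HU muscle. Of 22 metallothionein and glucocorticoid response genes, Klf9, Cebpb and Sult1a1 were higher (13.6%, against 4.86% of all genes). Above 0 in HU were 21 of them, against 2478 of all 5972 genes (list median 0.40 in HU, 0.13 in WB). Cebpb, a transcription factor of fat and inflammation genes, had 181, 294, 396 and 221 in Nfkb1-/- HU muscle and 177, 142, 106 and 127 in wild type HU muscle (0.95 ± 0.24, adjusted p = 0.016), with replicates 2 and 3 of Nfkb1-/- highest. Klf9, a glucocorticoid-induced repressor, had 784, 1339, 1602 and 831 in Nfkb1-/- HU muscle and 645, 746, 764 and 658 in wild type HU muscle (0.63 ± 0.17, adjusted p = 0.023), with the same 2 arrays highest. The Klf9 call was lost without either of them or without wild type HU replicate 1 (adjusted p up to 0.064). Fkbp5, Per1 and Pdk4 were not called, at 0.80, 0.83 and 0.71.

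Genes of lipid, sugar and redox metabolism were called in both directions. The shares over all genes were 4.86% higher and 10.9% lower. Of 20 fatty acid and sterol synthesis genes, Scd2, Srebf1, Hmgcs1, Fdps and Idi1 were lower and Dgat2 was higher (median -0.02). The Hmgcs1 call was lost without Nfkb1-/- HU replicate 2 or wild type HU replicate 2 or 4 (adjusted p up to 0.062). Scd2, a fatty acid desaturase, had 71.2, 58.8, 58.2 and 106 in Nfkb1-/- HU muscle and 115, 131, 141 and 154 in wild type HU muscle, without overlap (-0.91 ± 0.20, adjusted p = 0.0076), and its second probe set was lower by -0.92 (adjusted p = 0.0014). Srebf1, the master regulator of fatty acid synthesis, had 116, 137, 102 and 86.0 in Nfkb1-/- HU muscle and 138, 144, 321 and 301 in wild type HU muscle (-0.95 ± 0.23, adjusted p = 0.014). The groups did not overlap, and wild type replicates 3 and 4 stood far above replicates 1 and 2. Of 22 glycolysis and glycogen genes, Fbp2, Phka1 and Ugp2 were higher and none lower, and the calls of Phka1 and Ugp2 each held in 12 of 16 fits without 1 array. Fbp2, the muscle form of fructose bisphosphatase, had 331, 375, 462 and 288 in Nfkb1-/- HU muscle and 144, 219, 226 and 236 in wild type HU muscle (0.83 ± 0.24, adjusted p = 0.031), a call lost without Nfkb1-/- HU replicate 2 or 3 or wild type HU replicate 1 (adjusted p up to 0.095). Of 30 oxidative stress and glutathione genes, 5 were higher and 5 lower (16.7% each). Nfe2l2, which encodes the antioxidant regulator Nrf2, had 111, 181, 188 and 125 in Nfkb1-/- HU muscle and 99.7, 84.5, 88.5 and 90.6 in wild type HU muscle, with replicates 2 and 3 of Nfkb1-/- highest (0.70 ± 0.14, adjusted p = 0.0053). Also higher were Mgst1, Txnrd1, Gsr and Gclm, of which Txnrd1, Gsr and Gclm are known Nrf2 targets, by 0.52, 0.65, 0.41 and 0.40. The lower members were Gsta4, Gstt1, Prdx2, Sod1 and Sod2. Gsta4, a glutathione transferase, had a HU difference of -0.50 (adjusted p = 0.0045) and a WB difference of 0.19, and its HU minus WB difference was called (-0.69, adjusted p = 0.048). Chac1, which degrades glutathione, had 366, 840, 576 and 325 in Nfkb1-/- HU muscle and 114, 179, 236 and 196 in wild type HU muscle (1.48 ± 0.37, adjusted p = 0.016). Its call was lost without wild type HU replicate 1 (adjusted p = 0.0504).

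Several tendon genes were lower in unloaded Nfkb1-/- muscle. Of 13 tendon and fibroblast markers, 5 were lower (Tnmd, Thbs4, Comp, Kera and Tnc) and none higher, against 10.9% lower and 4.86% higher of all genes. Their median was -0.35 in HU and -0.07 in WB. The Comp call was lost without Nfkb1-/- HU replicate 2 or wild type HU replicate 4 (adjusted p up to 0.053). Tnmd, a tendon-specific membrane protein, had 161, 91.3, 147 and 158 in Nfkb1-/- HU muscle and 167, 229, 256 and 237 in wild type HU muscle, without overlap (-0.69 ± 0.16, adjusted p = 0.011). Thbs4, a thrombospondin of tendon, had 338, 325, 435 and 472 in Nfkb1-/- HU muscle and 485, 537, 709 and 791 in wild type HU muscle (-0.67 ± 0.16, adjusted p = 0.014). Fitted on the HU groups alone, no tendon marker was called. The intensity summed over all 14 markers on the array overlapped, at 3298 to 4027 in Nfkb1-/- HU muscle and 3749 to 4556 in wild type HU muscle. Of 24 collagen and matrix genes, Col6a2 was the only one called (-0.78 ± 0.21, adjusted p = 0.023), a smaller share than the 10.9% of all genes. Below 0 in HU were 19 of them (79.2%), against 58.5% of all genes (list median -0.34 in HU, 0.08 in WB). Col6a2 had 148, 80.4, 123 and 210 in Nfkb1-/- HU muscle and 266, 255, 195 and 200 in wild type HU muscle, with Nfkb1-/- replicate 4 inside the wild type range. Its call was lost without Nfkb1-/- HU replicate 2 or 3 or wild type HU replicate 1 or 2 (adjusted p up to 0.066). The sum of these genes ran from 3517 to 8872 in Nfkb1-/- HU muscle, a wider range than the 6495 to 7805 of wild type HU muscle. How much tendon and connective tissue each sample held was not tested.

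**Figure D4:**
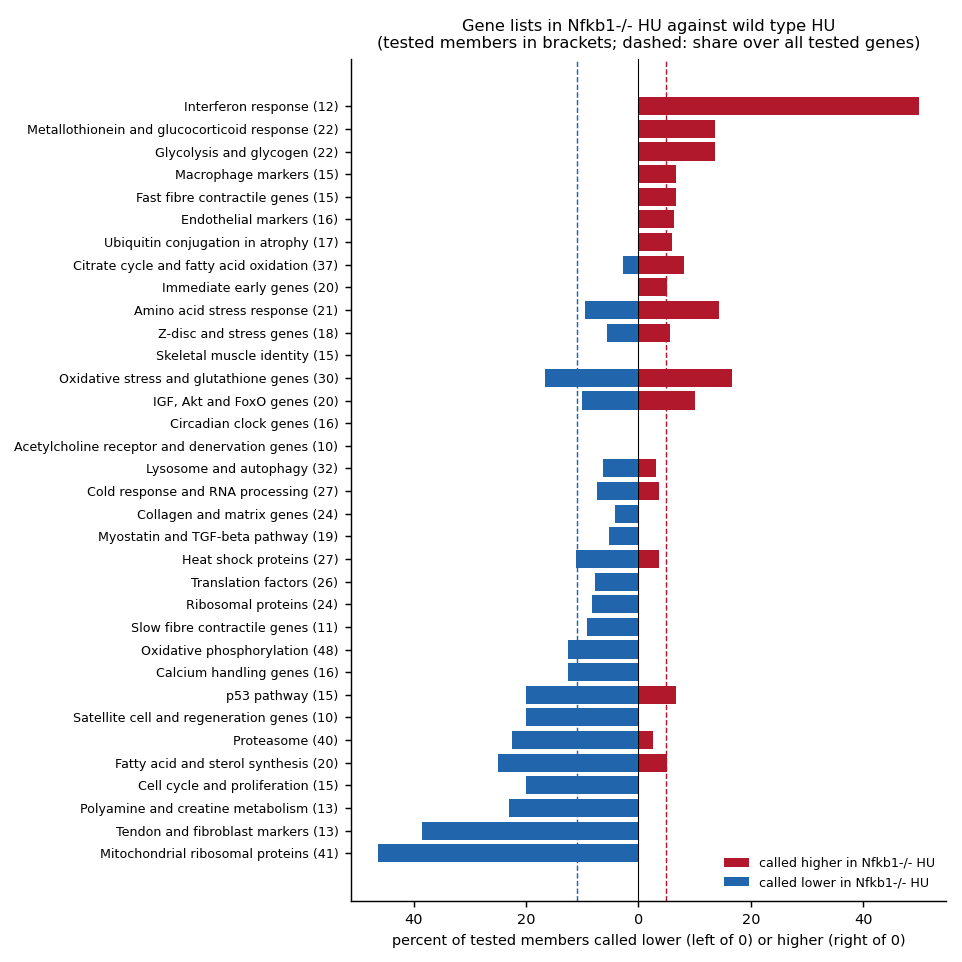
Percent of tested members called higher (right of 0, red) or lower (left of 0, blue) in Nfkb1-/- HU than in wild type HU muscle, for each gene list with at least 10 tested members (number in brackets) that was not chosen by the study; dashed lines mark the 4.86% higher and 10.9% lower over all 5972 genes. Interferon response genes reach farthest to the right and mitochondrial ribosomal proteins farthest to the left.

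The largest differences of single probe sets were near presence and absence, and for several of them the wild type arrays themselves lay at a high and a low level. Gdpd3, a lysophospholipase gene, had 5.82, 6.74, 6.11 and 5.39 in Nfkb1-/- HU muscle and 262, 204, 386 and 478 in wild type HU muscle (-5.72 ± 0.64, adjusted p = 9.2e-05). In WB it had 6.03, 5.66, 6.10 and 5.76 in Nfkb1-/- muscle and 5.75, 6.19, 5.45 and 92.4 in wild type muscle, where 1 array of 4 was high. Pttg1, the separase inhibitor securin, had 17.5, 36.8, 17.2 and 14.3 in Nfkb1-/- HU muscle and 252, 292, 371 and 373 in wild type HU muscle (-3.99 ± 0.50, adjusted p = 0.00024). WB wild type arrays of Pttg1 held 153, 17.6, 141 and 108, of which replicate 2 was at the level of the Nfkb1-/- WB arrays (10.7 to 17.8). A second Pttg1 probe set was lower too (-3.13, adjusted p = 0.0014). Xdh, xanthine dehydrogenase, had 115, 93.4, 118 and 94.2 in Nfkb1-/- HU muscle and 22.5, 31.1, 25.3 and 24.8 in wild type HU muscle (2.02 ± 0.35, adjusted p = 0.002), and WB wild type values of 26.5, 108, 112 and 33.5. Adi1, an enzyme of methionine salvage, had 10.1, 6.55, 7.62 and 5.76 in Nfkb1-/- HU muscle and 92.5, 108, 58.5 and 54.9 in wild type HU muscle (-3.36 ± 0.58, adjusted p = 0.0021). Its WB wild type values were 78.7, 70.3, 8.65 and 8.43. For Ankrd33b the split lay within the HU group, at 3.45, 3.91, 16.6 and 19.3 in wild type HU muscle, below the 25.8 to 42.2 of Nfkb1-/- HU muscle. Its call was lost without Nfkb1-/- HU replicate 2 or 3 or wild type HU replicate 1 or 2 (2.07 with all arrays, adjusted p up to 0.084 without these).

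Not all of these were changes of a whole gene. Adi1 had 3 probe sets, called at -3.36, -0.98 (adjusted p = 0.0067) and 0.45 (adjusted p = 0.021), so that the direction depended on the probe set. The Rps9 probe set with the largest higher call (3.30 ± 0.56, adjusted p = 0.0019) had 219, 236, 262 and 204 in Nfkb1-/- HU muscle and 27.8, 19.0, 25.2 and 21.8 in wild type HU muscle, while a brighter one for this ribosomal protein averaged 1028 in Nfkb1-/- and 1134 in wild type HU muscle and was not called. Likewise 1 probe set of Purb, a repressor of muscle genes, was lower in HU and WB (-1.43 and -1.52) and its 2 others differed by -0.00 and 0.03 in HU. Tial1, an RNA-binding protein, was higher by 1.54 in 1 of 4 probe sets and not called in the others, and Ndel1 lower by -2.17 in 1 of 2. Over all 487 genes with several tested probe sets and a HU call, 133 had every probe set called the same way and 5 had calls in both directions. Differences seen in HU and WB alike included Tmem267, a membrane protein gene of unknown function, at 102, 104, 86.3 and 76.9 in Nfkb1-/- HU muscle and 10.4, 7.07, 19.9 and 16.3 in wild type HU muscle (2.88 in HU, 2.11 in WB). Paip1, a translation activator, was near the bottom of the scale in all Nfkb1-/- arrays, at 2.93 to 3.46 in HU, against 20.6 to 30.8 in wild type HU muscle (-3.02 in HU, -2.71 in WB).

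**Figure D5:**
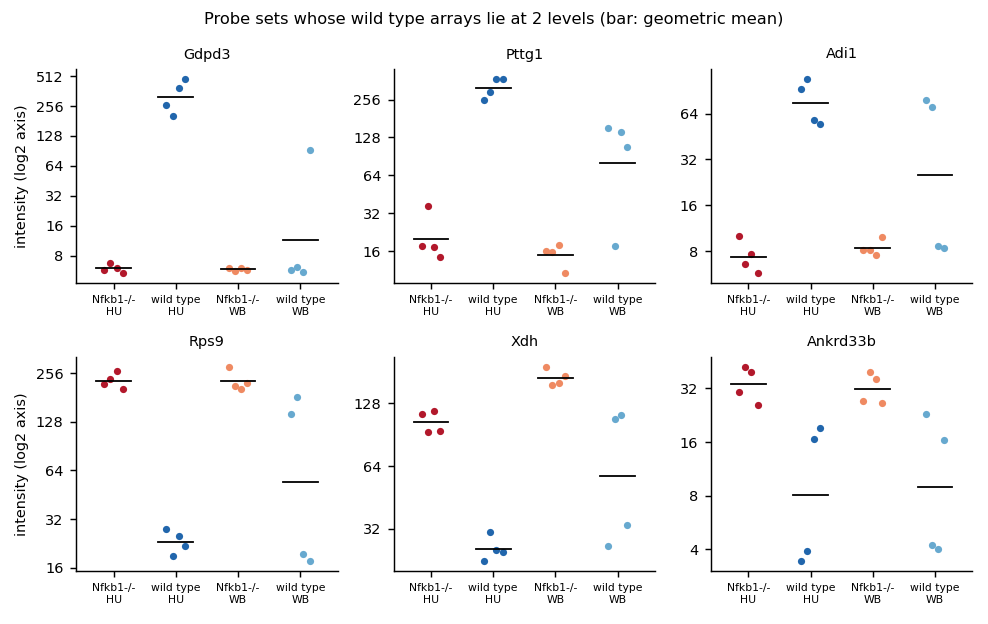
Intensity on a log2 axis of 6 probe sets on each array of the 4 groups, with a bar at the geometric mean (n = 4). Wild type arrays are at a high and a low level in WB and, for Ankrd33b, in HU as well. The Nfkb1-/- HU arrays span a narrower range than that split in each panel. Their widest spread is for Pttg1, with replicate 2 at 36.8 and the others at 14.3 to 17.5.

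Among the probe sets whose genotype difference in HU differed from that in WB, 23 of 27 were also HU calls. The count was 5, 9 and 3 without Nfkb1-/- WB replicate 1, 2 or 4, 14 without wild type HU replicate 4 and 55 without Nfkb1-/- HU replicate 4. Lower in HU were, beside Mrpl55 and Gdpd3, Pts, an enzyme of tetrahydrobiopterin synthesis, and Rab40b, a small GTPase. Pts had 17.2, 18.3, 15.4 and 22.3 in Nfkb1-/- HU muscle and 43.4, 34.0, 40.6 and 45.7 in wild type HU muscle (-1.16 ± 0.12), against -0.09 in WB (difference -1.07, adjusted p = 0.019). Rab40b had 48.3, 56.1, 42.6 and 51.6 in Nfkb1-/- HU muscle and 136, 92.2, 106 and 95.2 in wild type HU muscle (-1.10 ± 0.12), against -0.06 in WB (difference -1.04, adjusted p = 0.019). Both are among the p50 targets named above. Higher in HU were Tial1 (difference 1.51, adjusted p = 5.6e-05), the amino acid transporter gene Slc7a6 (0.65, adjusted p = 0.040), the transcriptional regulator Cited2 and the interleukin-15 receptor gene Il15ra. Cited2 had 94.6, 116, 117 and 99.5 in Nfkb1-/- HU muscle and 81.4, 76.8, 64.2 and 60.7 in wild type HU muscle (0.60 ± 0.15), and a WB difference of -0.60 (difference 1.19, adjusted p = 0.028). Il15ra, a receptor of a muscle cytokine, had 23.3, 23.4, 27.5 and 20.4 in Nfkb1-/- HU muscle and 16.6, 18.7, 18.1 and 15.1 in wild type HU muscle (0.46 ± 0.11), and -0.33 in WB (difference 0.79, adjusted p = 0.042).

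Genes near the deleted locus were counted because a targeted strain can keep donor DNA around it. Of the 10 tested genes on each side of Nfkb1 on chromosome 3, 3 of 20 were called in HU (Ostc, Papss1 and Adh1) and none in WB. Of 25 on each side, 8 of 50 were called in HU (16%), near the 15.7% of all genes. In WB 1 of these 50 was called, Gbp7, in the same direction as in HU. With up to 50 on each side, 2 of 88 were called the same way in HU and WB, Extl2 and Gbp7. By autosome, 12.5% (chromosome 8) to 20.7% (chromosome 7) of genes were called in HU, and 15.1% on chromosome 3. In WB up to 2.08% (chromosome 5) were called, and 1.85% on chromosome 3, against 0.854% of all genes. On chromosome 3, 5 of 325 genes were called the same way in HU and WB. Whether donor DNA was kept around the locus was not tested.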

How the data were processed

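RNA of gastrocnemius and plantaris muscle, from 1 mouse per array, was hybridised to Affymetrix Mouse Genome 430A 2.0 arrays. The deposited values are linear intensities that the authors made from scanner files of GCOS with RMA and quantile normalization. The 8 Bcl3-/- arrays had medians of 81.1 to 86.8, against 11.6 to 11.9 on the others, and were left out of the fit. Log2 intensities of 16 arrays were fitted here with limma 3.58.1 (R 4.3.3; Python 3.11.15, pandas 2.3.3 and matplotlib 3.10.9 for summaries and plots), with 12 residual and 4.18 prior degrees of freedom, over 9722 probe sets above an intensity of 20 on at least 4 arrays, and p-values were adjusted by Benjamini-Hochberg over all of them. The fit was tested on simulated data. A gene in a list was represented by its brightest probe set. Members and gene lists were chosen with earlier results of these data known. Genes were named by rule, as the 15 largest non-overlapping calls in each direction, every tested NF-κB family gene and atrophy gene of the study's list, up to 4 called members of each other list by adjusted p (up to 2 with the smallest p where none was called), up to 8 calls in each direction of the HU minus WB difference, and up to 8 shared HU and WB calls. Others were named after their values were seen. Alternatives were other filters, scalings, variance models and tests, a replicate block, and arrays left out. The labels do not say that replicate numbers pair animals, and the main fit did not pair them. Sequences and gene starts came from RefSeq (GRCm38.p6). The result of 1 probe set is not reported here.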

Additional observations from a re-analysis of the deposited data

Results flagged for a closer look

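Of 512 groups of 4 arrays compared, over the 4 groups and the probe sets described, 24 held 1 array that stood apart from the other 3 by a gap past Dixon's 95% critical value, and chance flags about 1 in 20 groups. In Nfkb1-/- HU muscle, replicate 2 was high for Rsad2, at 826 against 76.7 to 85.8 on the others, for Alas2, at 284 against 43.4 to 61.9, for Pttg1, at 36.8 against 14.3 to 17.5, and for Rrm2b, at 51.0 against 42.1 to 42.7. Replicate 3 was high for Nfkbia, at 547 against 379 to 406, replicate 4 was high for Slc1a5, an amino acid transporter gene, at 31.8 against 24.7 to 25.8, and replicate 1 was low for Psma4, at 178 against 234 to 244. In wild type HU muscle, replicate 1 was high for Ankrd1, at 295 against 59.8 to 94.6, for Vldlr, at 426 against 344 to 352, and for Ikbkb, at 60.2 against 46.0 to 48.4, and replicate 2 was high for Mgst1, at 219 against 169 to 174.

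In Nfkb1-/- WB muscle, replicate 4 was low for Nfkbia, at 312 against 560 to 601, and high for Ifit3, at 53.6 against 36.5 to 38.7, and for Psmg2, at 114 against 94.7 to 96.6. Replicate 1 was low for Foxo3, at 44.8 against 51.0 to 52.2, and replicate 3 for Psph, at 17.8 against 22.8 to 23.8. In wild type WB muscle, replicate 4 was high for Gdpd3, at 92.4 against 5.45 to 6.19, and low for S100a9, at 3.31 against 3.50 to 3.52, for Capns1, at 233 against 297 to 308, for Azin1, at 89.7 against 107 to 109.8, and for Psmg4, at 15.9 against 21.5 to 22.5. Replicate 2 was high for Ifit3, at 24.4 against 15.1 to 16.0, for Mylk2, at 236 against 197 to 199.8, and for Sult1a1, at 90.3 against 66.5 to 70.3.

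The genotype difference in HU differed from that in WB, by limma's test of the difference itself, for 12 of the genes described here. It was lower in HU for Gdpd3 (-4.74 ± 0.90 SE, adjusted p = 0.04), Klk1b16 (-3.28 ± 0.59, adjusted p = 0.028), the integrin gene Itgb6 (-1.23 ± 0.20, adjusted p = 0.022), Pts (-1.07 ± 0.17, adjusted p = 0.019), Rab40b (-1.04 ± 0.17, adjusted p = 0.019), Mrpl55 (-0.91 ± 0.15, adjusted p = 0.019), the protease gene Prss23 (-0.91 ± 0.15, adjusted p = 0.021) and Gsta4 (-0.69 ± 0.14, adjusted p = 0.048). It was higher in HU for Tial1 (1.51 ± 0.14, adjusted p = 5.59e-05), Cited2 (1.19 ± 0.21, adjusted p = 0.028), Il15ra (0.79 ± 0.15, adjusted p = 0.042) and Slc7a6 (0.65 ± 0.12, adjusted p = 0.04).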

How the results depend on the processing

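No call changed direction under any setting run. With a fit on the compared groups alone there were 176 higher and 354 lower HU calls and 167 WB calls, with 6 lower mitochondrial ribosomal protein genes, 1 lower proteasome gene and 28 lower p50 targets. With the filter of the study there were 463 lower HU calls. It left 11 mitochondrial ribosomal and 11 proteasome genes to test, of which 6 and 5 were lower. The main fit tested 41 and 40. Without a filter there were 137 WB calls and 5 lower proteasome genes. With an intensity above 20 on all 8 HU arrays there were 52 WB calls, 29 shared calls and 9 HU minus WB calls. All 24 arrays gave 174 WB and 83 shared calls. Array weights gave 429 WB, 190 shared and 230 HU minus WB calls, and a trend with robust variance gave 41 HU minus WB calls. Quantile normalization once more gave 740 higher and 920 lower HU calls (44.6% higher, against 32.9%) and 83 HU minus WB calls, and centring on array medians gave 46.

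The methods' t-test with Benjamini-Hochberg adjustment gave 53 higher and 76 lower HU calls, 13 shared calls, 1 mitochondrial ribosomal gene, 0 proteasome genes and 10 p50 targets. With q-values it gave 166, 293, 33, 4, 3 and 32. With either adjustment 11 mitochondrial ribosomal and 11 proteasome genes were tested. A fold of at least 1.4 left 255 higher and 314 lower HU calls, 3 mitochondrial ribosomal and 2 proteasome genes.

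The replicate block gave 479 higher and 916 lower HU calls, of which 439 and 874 were calls without it, 73 WB calls, 41 shared calls, 26 HU minus WB calls and 5 lower proteasome genes. Same-numbered arrays had deviations that correlated at -0.20 to 0.27. The labels do not say whether the numbers pair samples, and these correlations cannot decide it.

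Leaving out wild type HU replicates 1 and 2 gave 262 higher and 565 lower HU calls, 178 WB, 98 shared and 60 HU minus WB calls, 9 mitochondrial ribosomal and 5 proteasome genes. The 3 other pairs were chosen after seeing the data. Without Nfkb1-/- HU replicates 2 and 3 there were 268 higher HU and 170 HU minus WB calls and 5 proteasome genes. Without Nfkb1-/- HU replicates 1 and 4 there were 1047 higher HU and 390 HU minus WB calls, 12 mitochondrial ribosomal genes, 2 proteasome genes and 29 p50 targets. Without wild type HU replicates 3 and 4 there were 149 WB and 388 HU minus WB calls and 4 proteasome genes. Single arrays left out gave 302 to 570 higher HU calls, 48 to 111 WB, 29 to 60 shared and 3 to 55 HU minus WB calls, and 3 to 14 proteasome genes. The cause of these shifts was not tested.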

Other observations

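Contractile and excitation genes of the muscle fibre were mostly not called in unloaded Nfkb1-/- muscle. Over all genes, 4.86% were called higher and 10.9% lower, and many of the lists below held only 1 or 2 calls. Of 11 slow fibre genes, Tpm3 was lower (median -0.31 in HU, -0.26 in WB), and of 15 fast fibre genes Mylk2, the kinase of fast myosin light chain, was higher (0.62 ± 0.16). Of 16 calcium handling genes, Cacnb1 and Jph2 were lower, and none of 10 acetylcholine receptor and denervation genes was called by limma (median -0.22). Among 18 Z-disc genes, Bag3 was higher and Cryab lower, a call that held in 3 of 16 fits without 1 array (adjusted p up to 0.146). The Tpm3 call held in 12 of these fits and that of Jph2 in 11. Satellite cell and regeneration genes had 2 lower members of 10, Igf2 and Mustn1 (median -0.37). Of 27 heat shock genes, Hspb3, Hspe1 and Cryab were lower and Bag3 was higher (median -0.15), with Hspe1 called in 9 of the 16 fits.

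Of 13 polyamine and creatine genes, Gamt, Azin1 and Oaz1 were lower. Gamt, the last enzyme of creatine synthesis, differed by -1.09 ± 0.23 in HU and 0.40 in WB. Of 21 amino acid stress genes, Chac1, Cebpb and Vldlr were higher and Psph and Ddit3 lower, with Psph, the last enzyme of serine synthesis, at -1.004 in HU. Cdk4, Cdkn1c and Mcm2 were lower of 15 cell cycle genes, and of 15 p53 pathway genes Ei24, Rrm2b and Aen were lower and Trp53inp1 higher. Of 37 citrate cycle and fatty acid oxidation genes, Lpl, Acadl and Pdha1 were higher and Acads lower. Ctsh and Capns1 were lower and Ulk1 higher of 32 lysosome and autophagy genes, and Srsf2 and Tardbp lower and Clk1 higher of 27 cold response and RNA processing genes. Ube2g1 was the only one called, higher, of 17 ubiquitin conjugation genes, Flt1, higher, of 16 endothelial genes, Tgfb2, lower, of 19 myostatin and TGF-beta genes, and Psmb10, lower, of 6 genes of MHC class I presentation. Of the 16 fits without 1 array, calls held in 3 for Acads, 4 for Aen, 5 for Psmb10, 8 for Mcm2, 9 for Pdha1, 10 for Acadl and Oaz1, 11 for Tgfb2 and Trp53inp1, 12 for Lpl and Clk1, 13 for Flt1 and Ube2g1, 14 for Cdkn1c and 15 for Cdk4 and Rrm2b. None of 16 circadian genes was called by limma (median 0.11).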
